A study of Mus musculus with 6 samples.

Results

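The miRNA families of miR-99 and miR-100 and of miR-125 were examined in CT values from TaqMan microRNA array cards of mouse aortas. Members were taken by name from the 596 mouse miRNA assays of the cards: miR-99a, miR-99b, miR-100 and every name that starts with miR-125, without names that end in a star. This gave 7 assays: miR-99a, miR-99b, miR-100, miR-125a-5p, miR-125a-3p, miR-125b-5p and miR-125b-3p. Of these, 6 had a CT under 40 in all 6 aortas, and miR-99a was at 40, which stands for no signal, in all 6. All 7 are on the same card.

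The aortas came from 3 EC-Dicerflox mice (VE-Cadherin-CreERT2, Dicer1flox/flox, Apoe-/-) and 3 EC-DicerWT mice (VE-Cadherin-CreERT2, Dicer1WT/WT, Apoe-/-), each array being 1 replicate. Both groups therefore lacked apolipoprotein E and carried the tamoxifen (TMX)-inducible Cre recombinase under the VE-cadherin promoter, which is active in endothelial cells (ECs). Mice of both groups received TMX at 2 mg per 20 g of body weight for 5 days. A high-fat diet (HFD), of which fat made up 21%, casein 19.5% and cholesterol 0.15%, began 1 week after the last dose, at 6 to 8 weeks of age according to the labels, and lasted 4 weeks. The recombination was directed at ECs, whereas the RNA was that of the whole aorta, and Dicer1 mRNA is not among the assays, so the cards hold no check of the genotype. In such bulk RNA, fewer cells of a type and less RNA per cell cannot be told apart.

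Dicer cuts the hairpin precursor of a miRNA and releases a short duplex. Usually one strand of it, from the 5p or the 3p arm, is loaded into an Argonaute protein, and the other is largely degraded. Bases 2 to 8 of the loaded strand, the seed, pair with target mRNAs, so that miRNAs with the same seed form a family. MiR-125 is the vertebrate relative of lin-4, the first miRNA described in worms, and the miR-99 and miR-100 family belongs to one of the oldest miRNA families of animals. In mammals, members of both families lie beside let-7 genes in duplicated clusters. MiR-100 and miR-99 are known to act on mTOR mRNA, and miR-125b is abundant in vascular smooth muscle.

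The mature sequences, which show why these assays make up separate seed groups, were read 5′ to 3′ from RefSeq (GRCm38.p6), with the seed in capitals. All 7 names found an entry, although 1 of them could not be assigned to a single strand. The first group has the seed of miR-99 and miR-100.
miR-99a: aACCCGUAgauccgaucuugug
miR-99b: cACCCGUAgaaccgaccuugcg
miR-100: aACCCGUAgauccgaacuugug
The second group has the miR-125 seed.
miR-125a-5p: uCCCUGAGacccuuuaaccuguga
miR-125b-5p: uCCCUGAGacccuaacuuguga
The opposite strands of the miR-125 hairpins do not share that seed, nor one among themselves.
miR-125a-3p: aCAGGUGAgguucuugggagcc
miR-125b-1-3p: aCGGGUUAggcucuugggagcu
miR-125b-2-3p: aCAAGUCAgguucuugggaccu
The cards list miR-125b-3p and, as a separate assay on the other card, miR-125b*. Which of them measures miR-125b-1-3p and which miR-125b-2-3p is not given in the sources used here, so both assays are called by their names on the cards.

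MiR-99a and miR-100 differ at a single base, U16A, counted from 1 at the 5′ end, with the base of miR-99a first. MiR-100 and miR-99b differ at 4 positions (A1C, U11A, A16C and U21C, with the base of miR-100 first). MiR-125a-5p and miR-125b-5p are identical over their first 13 bases. How far each assay responds to its nearest relative is not given in the sources used here.

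The genes lie in 3 clusters (GRCm38.p6, all on the plus strand). On chromosome 17, miR-99b (chr17:17830194-17830215), let-7e (chr17:17830366-17830387), miR-125a-5p (chr17:17830817-17830840) and miR-125a-3p (chr17:17830855-17830876) lie within the limits of the protein-coding gene Spaca6. On chromosome 9, miR-100 (chr9:41531437-41531458) and the miR-125b-5p of Mir125b-1 (chr9:41581940-41581961) lie within the long non-coding RNA gene Mir100hg, with Mirlet7a-2 between them. On chromosome 16, miR-99a (chr16:77598940-77598961) and the miR-125b-5p of Mir125b-2 (chr16:77646279-77646300) flank Mirlet7c-1, and no other gene of the RefSeq gene table overlaps them. Since the same miR-125b-5p comes from both Mir125b genes, its CT does not tell the clusters apart. Only the chromosome 17 cluster gives each of its members from 1 gene.

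The CT is the PCR cycle at which the signal passes a threshold, so a lower CT means more RNA, by a factor of 2 per cycle where amplification is complete. From 375 to 415 miRNAs per aorta had a CT under 40, and 350 did in all 6. The mean CT of those 350 was highest in EC-Dicerflox replicate 3 (28.1) and in EC-DicerWT replicate 3 (27.3) and lay between 26.0 and 26.5 in the other 4 aortas. Among markers of cell types, the smooth muscle miRNAs miR-143 and miR-145 reached a CT of 14.7 and the endothelial miR-126 strands 17.1, and the leukocyte miRNA miR-150 reached 19.0. Of 6 striated muscle markers on the cards, miR-133a (lowest CT 18.4), miR-133b and miR-1 were detected in all 6 aortas and miR-208 in 3, while miR-208b and miR-499 were at 40 throughout. CT differences between assays also hold differences in primer efficiency and pre-amplification, so the order of assays given here is an order of CT.

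MiR-125b-5p and miR-99b were the strongest members in most aortas. The CT of miR-125b-5p was 18.8, 18.6 and 20.0 in EC-Dicerflox replicates 1, 2 and 3 and 18.9, 19.4 and 20.0 in EC-DicerWT replicates 1, 2 and 3. Ranked from the lowest CT within each aorta, it held places 16 to 24. MiR-99b had CT values of 19.6, 18.9 and 20.7 in EC-Dicerflox and 18.9, 18.9 and 20.3 in EC-DicerWT mice and held places 17 to 25. Within an aorta, miR-99b minus miR-125b-5p ran from -0.51 to 0.75 cycles, so neither was ahead of the other in all aortas.

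MiR-125a-5p lay about 2.52 cycles above miR-125b-5p, its closest relative in sequence. Its CT was 21.4, 20.9 and 22.8 in EC-Dicerflox and 21.6, 21.4 and 22.6 in EC-DicerWT aortas, at places 51 to 58. The difference from miR-125b-5p was between 1.98 and 2.87 cycles in each of the 6 aortas, so this order held throughout. MiR-100 was at 21.6, 21.2 and 18.5 in EC-Dicerflox and 19.6, 21.6 and 21.6 in EC-DicerWT mice. It ranged from place 9 to place 59, a wider span than that of any other detected member.

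The opposite strands were far weaker. MiR-125a-3p had CT values of 27.8, 27.3 and 29.2 in EC-Dicerflox and 27.8, 27.6 and 29.0 in EC-DicerWT mice, at places 198 to 217. MiR-125b-3p was at 28.8, 28.7 and 30.1 in EC-Dicerflox and 29.3, 28.7 and 29.5 in EC-DicerWT mice, at places 228 to 260. In all 6 aortas both lay above every detected 5p member, and miR-125b-3p lay 0.58 to 1.50 cycles above miR-125a-3p. MiR-125b*, which the naming rule leaves out, had CT values of 29.1, 28.8 and 31.4 in EC-Dicerflox and 29.5, 29.6 and 29.7 in EC-DicerWT mice. It was thus at about the strength of miR-125b-3p, the difference being 0.10 to 1.27 cycles within an aorta.

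MiR-99a gave no signal, although its neighbours in the chromosome 16 cluster have assays that did. Let-7c was at CT 19.5, 19.0 and 21.0 in EC-Dicerflox and 19.6, 20.0 and 20.8 in EC-DicerWT mice. Let-7c also comes from other genes, but let-7c-1*, named for the Mirlet7c-1 hairpin next to Mir99a, was at 27.3, 27.5 and 28.7 in EC-Dicerflox and 27.8, 27.0 and 28.1 in EC-DicerWT mice. The value of 40 for miR-99a stands for a lack of signal from this assay, and whether the assay worked on these cards was not tested. Of 519 miRNA names without a star, 397 were found in RefSeq, and among these miR-351 was the only assay outside the members with a member's seed, that of miR-125-5p. It was under 40 in EC-Dicerflox replicate 2 (37.8) and EC-DicerWT replicate 2 (35.5) alone.

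**Figure D1:**
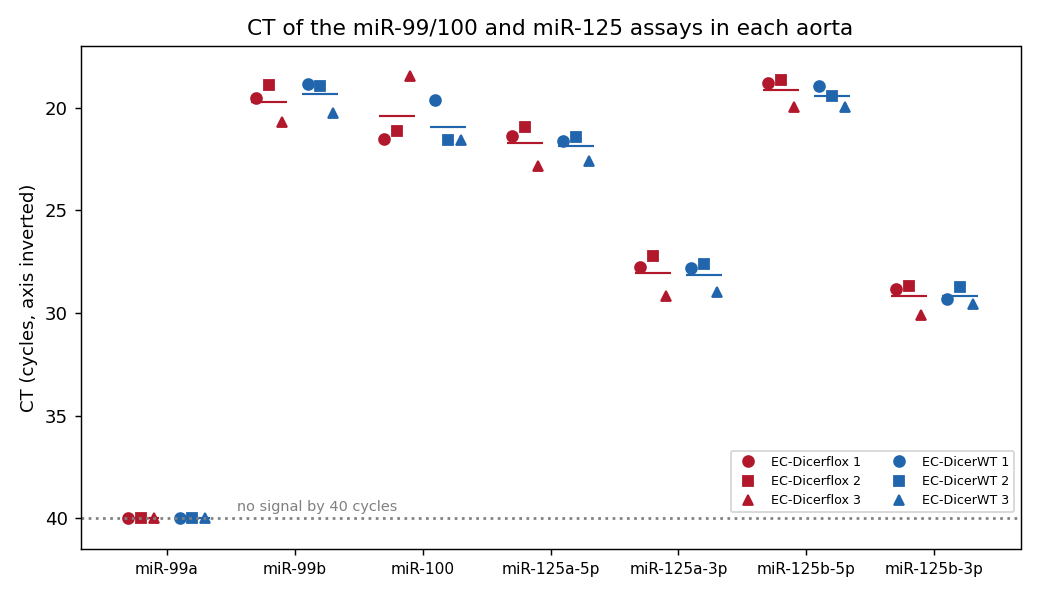
CT in cycles (axis inverted, so that more RNA is higher) of the 7 assays in each of the 3 EC-Dicerflox and 3 EC-DicerWT aortas; symbols mark the replicate and lines the group means. MiR-99a lies at 40 throughout, the 3p strands lie below the 5p strands, and miR-100 is highest in EC-Dicerflox replicate 3, where each of the other detected members is lowest.

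The strands of miR-125a kept an almost fixed distance. The RefSeq hairpin of Mir125a is given here with both mature strands in capitals, to show the strands that the next values compare.
Mir125a: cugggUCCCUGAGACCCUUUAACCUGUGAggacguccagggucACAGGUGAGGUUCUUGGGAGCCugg
MiR-125a-3p minus miR-125a-5p was 6.38, 6.31 and 6.33 cycles in EC-Dicerflox and 6.20, 6.22 and 6.35 cycles in EC-DicerWT aortas. While the CT of miR-125a-5p itself ranged over 1.90 cycles, this difference ranged over 0.184. Its means of 6.34 ± 0.04 (SD, n = 3) in EC-Dicerflox and 6.26 ± 0.08 (SD, n = 3) in EC-DicerWT differed by 0.08 cycles (exact permutation test, two-sided, p = 0.3, adjusted p = 1.0 over the 15 pairs of members).

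Few assays of the cards kept so constant a distance, as a count made after these values had been seen describes. Of 61075 pairs among the 350 miRNAs that gave a signal in every aorta, 8 (0.0131%) had a smaller range than 0.184 cycles, and the median range was 2.30 cycles. Of 19 miRNAs with assays named 5p and 3p among them, miR-125a had the smallest range. Strand pairs in which 1 name ends in a star were not ranked. The next, miR-324, had 0.585 cycles, and the median of the 19 was 1.37.

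The strands of miR-125b were less tightly tied. MiR-125b-3p minus miR-125b-5p was 10.03, 10.06 and 10.11 cycles in EC-Dicerflox, which lay close together, and 10.40, 9.27 and 9.60 cycles in EC-DicerWT, which did not. The range of 1.12 cycles put miR-125b at place 7 among the 19 strand pairs. Its group means of 10.06 ± 0.04 and 9.76 ± 0.58 (SD, n = 3 each) did not differ beyond the spread (exact permutation p = 0.4, adjusted p = 1.0). MiR-125b* minus miR-125b-5p, a pair added after the values had been seen, was 9.79 to 11.4 cycles, with the highest value in EC-Dicerflox replicate 3.

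The distance between miR-99b and miR-125a, products of the same cluster, differed between the groups without overlap. MiR-125a-5p minus miR-99b was 1.82, 2.04 and 2.13 cycles in EC-Dicerflox and 2.77, 2.49 and 2.35 cycles in EC-DicerWT aortas. The mean difference between the groups was -0.54 cycles, meaning relatively more miR-125a-5p, or less miR-99b, in EC-Dicerflox mice. The exact permutation test gave p = 0.1, the smallest two-sided value that 20 arrangements of 3 against 3 samples allow, and an adjusted p of 0.75 over the 15 pairs. Between mice of equal number the difference was -0.95, -0.45 and -0.21 cycles, and 3 pairs cannot give a two-sided p below 0.25. Leaving out each sample in turn gave -0.63 to -0.42 cycles.

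MiR-125a-3p minus miR-99b gave nearly the same picture, at 8.21, 8.35 and 8.46 cycles in EC-Dicerflox and 8.97, 8.71 and 8.70 cycles in EC-DicerWT mice. The groups again did not overlap, and the difference was -0.46 cycles (exact permutation p = 0.1, adjusted p = 0.75). Because both rest on miR-99b and the miR-125a strands move together, they are largely a single measurement. These were 2 of 15 pairs of members without overlap, while 11.3% of all 61075 pairs of miRNAs had none, so the share is near that of the cards as a whole. The distances use no control RNA. A difference in RNA input drops out of them only as far as it shifts both assays alike.

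Let-7e lies between miR-99b and miR-125a in the same cluster. MiR-99b minus let-7e was -0.48, -0.61 and -0.20 cycles in EC-Dicerflox and -1.19, -1.75 and -0.49 in EC-DicerWT mice, which overlapped (difference 0.71 cycles, exact permutation p = 0.2). Between mice of equal number, which the labels do not call pairs, it was higher in EC-Dicerflox by 0.72, 1.14 and 0.29 cycles. MiR-125a-5p minus let-7e ranged from 0.74 to 1.93 cycles and differed by 0.18 cycles between the groups (exact permutation p = 0.8). Neighbours in this cluster therefore did not keep a fixed distance in the way the miR-125a strands did.

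MiR-125b-5p stayed closer to let-7c and let-7a, its neighbours in the other clusters, although all of these also come from genes elsewhere or from several genes. MiR-125b-5p minus let-7c was between -0.98 and -0.39 cycles, and minus let-7a between -2.17 and -1.56 cycles. The group differences were -0.02 and -0.12 cycles (exact permutation p = 0.9 and 0.6). For all 5 pairs with let-7 the p adjusted over the 5 was 1.0, and none was without overlap.

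**Figure D2:**
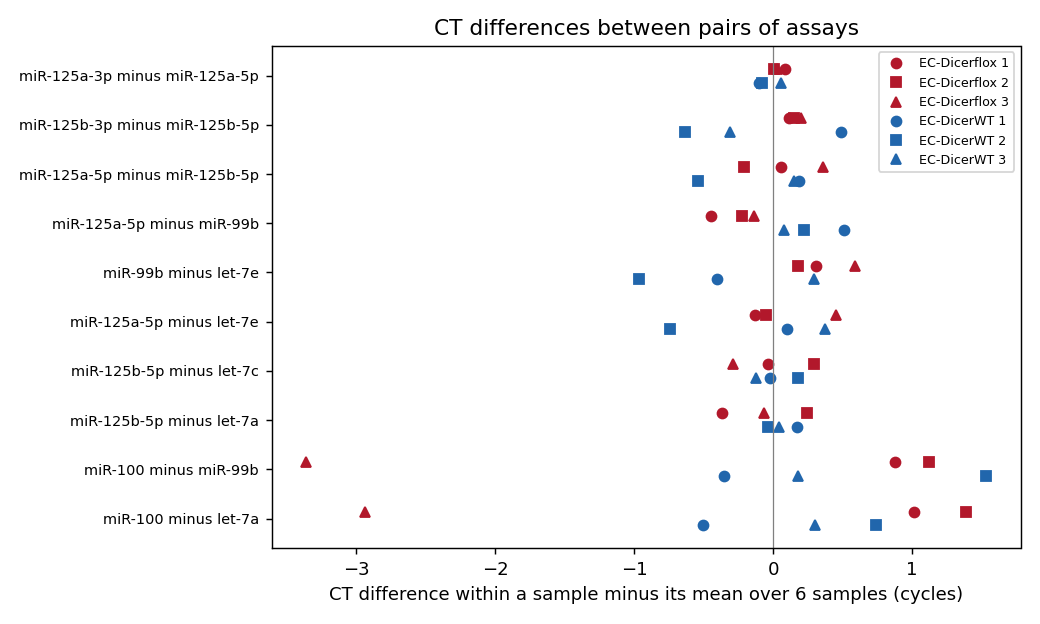
CT differences in cycles between pairs of assays within an aorta, each shown relative to its mean over the 6 aortas; red symbols are EC-Dicerflox and blue EC-DicerWT, with the replicate as the shape. The miR-125a strands span 0.184 cycles, miR-125a-5p minus miR-99b separates the groups, and the pairs with miR-100 span over 4 cycles because of EC-Dicerflox replicate 3.

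MiR-100 departed from the other members. In EC-Dicerflox replicate 3, the aorta with the highest CT for each of the other detected members, miR-100 had its lowest CT, 18.5. There miR-100 minus miR-99b was -2.24 cycles, meaning that miR-100 was ahead, whereas in the other 5 aortas it was 0.77 to 2.66 cycles. The second-lowest CT, 19.6, was in EC-DicerWT replicate 1, so a high and a low level occurred in both groups.

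To lessen the part of RNA input, each CT was set against the mean of the 350 miRNAs in its aorta. On this log2 scale, the level of miR-100 was 4.91, 4.89 and 9.58 above that mean in EC-Dicerflox and 6.59, 4.94 and 5.70 above it in EC-DicerWT mice. Its SD within the groups was 2.00, against 0.26 for miR-99b, 0.21 for miR-125a-5p, 0.23 for miR-125a-3p, 0.26 for miR-125b-5p and 0.43 for miR-125b-3p. The median over the 350 miRNAs was 0.47.

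Larger SDs than that of miR-100 were found for 18 of the 350 miRNAs. Among the 56 with a mean CT of at most 22, a limit chosen after the values had been seen to cover the stronger members, there were 0, and the median was 0.28. These values rest on EC-Dicerflox replicate 3: without it, the SD of miR-100 was 0.67, and 99 of the 350 and 3 of the 56 miRNAs had a larger one. MiR-125a-5p, in contrast, had a smaller SD than 315 of the 350. MiR-125b-5p and let-7a each have a gene in the chromosome 9 cluster of miR-100. On this scale they were also highest in EC-Dicerflox replicate 3, but by less. In that aorta miR-125a-5p, let-7c and let-7e, which lie in or also come from other clusters, were highest too. The same held for miR-125b-3p, which could not be assigned to a cluster here. MiR-125b-5p was at 8.08 there and at 7.09 to 7.67 in the other 5 aortas, and let-7a was at 6.21 against 5.25 to 5.84. Their distance to miR-100 was therefore not constant: miR-100 minus miR-125b-5p was 2.75, 2.51 and -1.50 cycles in EC-Dicerflox and 0.69, 2.15 and 1.63 cycles in EC-DicerWT mice. MiR-100 minus let-7a was 0.58, 0.95 and -3.38 cycles in EC-Dicerflox and -0.94, 0.30 and -0.14 cycles in EC-DicerWT aortas. As each assay has a single CT per aorta, a technical repeat of the value in EC-Dicerflox replicate 3 was not analysed here.

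**Figure D3:**
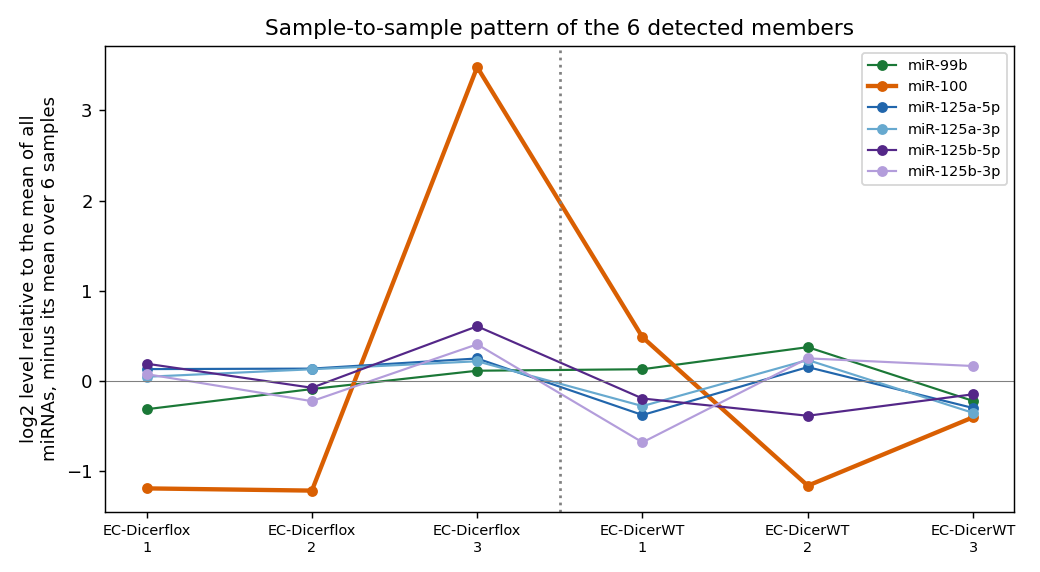
Log2 level of the 6 detected members relative to the mean of 350 miRNAs in each aorta, with the mean of the member over the 6 aortas subtracted; lines only join the points of a member, and the dotted line parts EC-Dicerflox from EC-DicerWT. The lines of the other 5 members stay within 1 log2 unit of 0, while miR-100 lies far above them in EC-Dicerflox replicate 3.

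For the comparison of the groups, each CT was referred to the average of the control RNAs U6 and snoRNA135 of its aorta, and levels and fold changes are on the log2 scale with positive values for more RNA in EC-Dicerflox mice. The estimate was above 0 for 5 of the 6 detected members and below 0 for miR-99b, while 251 of all 461 miRNAs tested (54.4%) had an estimate above 0. With snoRNA202 alone as the control, these counts were 4 of 6 and 204 of 461 (44.3%). None of the members passed an adjusted p of 0.05 (limma, Benjamini-Hochberg over 461 miRNAs, adjusted p = 0.923 for each of the 6), as was the case for 0 of the 461 (0%). At an unadjusted limma p under 0.05 there were 0 of 6 members, against 14 of the 461 miRNAs (3.04%). Groups without overlap were found for 1 of the 6, miR-125b-5p, against 48 of the 461 (10.4%). The median estimate of the members was 0.28 and that of all 461 was 0.08.

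The level of miR-125b-5p was 0.09, 0.06 and 0.25 in EC-Dicerflox and -0.12, -0.50 and -0.34 in EC-DicerWT mice, so every EC-Dicerflox value lay above every EC-DicerWT value. The log2 difference was 0.46 (95% interval -0.15 to 1.06, SE 0.24), with the smallest possible exact permutation p of 0.1 and an unadjusted limma p of 0.111. Between mice of equal replicate number, the difference was 0.21, 0.56 and 0.60. Without moderation of the variance the unadjusted p was 0.0218 (adjusted 0.891), and with a trend and robust moderation it was 0.0384 (adjusted 0.900). With U6, snoRNA135 or snoRNA202 alone, or with 5 control RNAs, the groups overlapped, with estimates from 0.30 to 0.54.

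Marker miRNAs and the let-7 neighbours are given beside this result. The summed level of the endothelial strands miR-126-3p and miR-126-5p, 2 of 2 markers detected, was 1.05 to 1.72 in EC-Dicerflox and 0.84 to 0.91 in EC-DicerWT mice, without overlap (exact permutation p = 0.1). With U6 alone or snoRNA135 alone as the control, these sums overlap between the groups. Among single miRNAs, 48 of the 461 (10.4%) had no overlap. The summed level of the smooth muscle markers miR-143 and miR-145, also 2 of 2 detected, was 4.30 to 5.56 and 4.23 to 4.83 (exact permutation p = 0.8). The 4 leukocyte markers, all detected, summed to -0.89 to -0.23 and -0.54 to 0.32 (exact permutation p = 0.6). MiR-142-5p, a member of that list, had a log2 difference of -0.996, without overlap, and was the only marker of these lists with an unadjusted limma p under 0.05, which was lost on adjustment over the 461 miRNAs. The part of these cell types in the result was not tested. Let-7c, which has a gene beside Mir125b-2, and let-7e, of the miR-99b and miR-125a cluster, had log2 differences of 0.44 and 0.50, both without overlap and both with an adjusted limma p of 0.923. The groups overlapped for let-7c with U6 alone or controls of the same card, and for let-7e with U6, snoRNA135 or snoRNA202 alone, 5 control RNAs or the mean of all miRNAs. Let-7a had 0.33, with overlap.

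MiR-125a-5p had levels of -2.49, -2.24 and -2.62 in EC-Dicerflox and -2.82, -2.48 and -3.01 in EC-DicerWT mice, which overlapped slightly. The log2 difference was 0.32 (95% interval -0.36 to 1.00, SE 0.27, exact permutation p = 0.3), and it was 0.34, 0.24 and 0.39 within pairs of the same number. MiR-125a-3p, with 0.24 (95% interval -0.50 to 0.97, exact permutation p = 0.4), and miR-125b-3p, with 0.15 (95% interval -0.59 to 0.88, exact permutation p = 0.8), were closer to 0. MiR-125b* had a log2 difference of -0.011 (exact permutation p = 1.0).

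MiR-99b had levels of -0.66, -0.20 and -0.49 in EC-Dicerflox and -0.05, 0.01 and -0.67 in EC-DicerWT mice, a log2 difference of -0.22 (95% interval -0.99 to 0.56, SE 0.31, exact permutation p = 0.5). MiR-100 had levels of -2.66, -2.45 and 1.75 in EC-Dicerflox and -0.82, -2.65 and -1.97 in EC-DicerWT mice. Its log2 difference of 0.69 (95% interval -2.72 to 4.10, SE 1.35, exact permutation p = 0.9) rested on EC-Dicerflox replicate 3, without which it was -0.75. The intervals of the 6 members all held 0, and they do not show that the levels were equal: for miR-125b-5p the data allow up to 1.06 log2 units more, and for miR-99b up to 0.99 less.

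**Figure D4:**
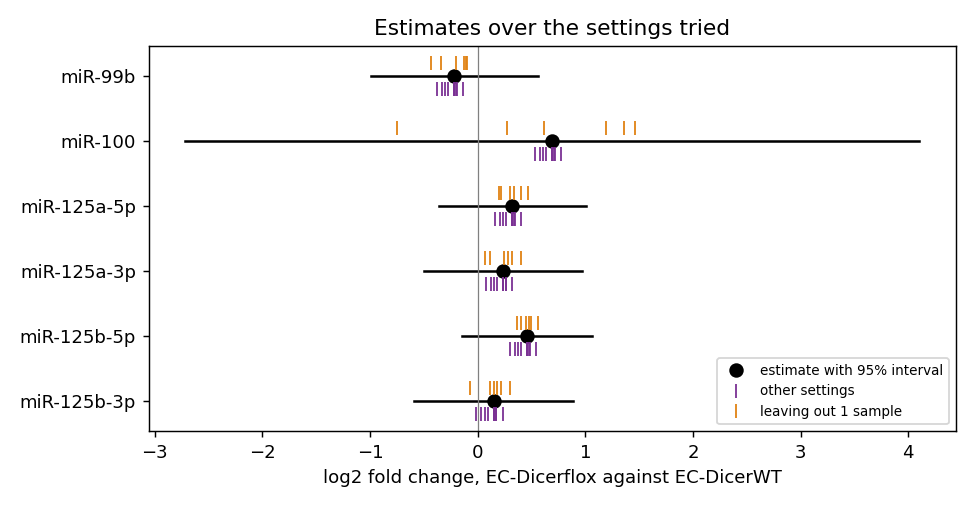
Log2 fold change between EC-Dicerflox and EC-DicerWT mice for the 6 detected members (points, with 95% limma intervals as bars), with ticks for the 14 other settings below each bar and for the 6 fits that leave out 1 aorta above it. Of the 14 settings, 7 alter only the variance, the miRNAs tested or CT values above 35, and repeat the estimates of these members. MiR-125b-5p stays above 0 and miR-99b below 0 in the other 7 and with each aorta left out, and miR-100 changes sign when EC-Dicerflox replicate 3 is left out.

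The miRNAs most like each member over the 6 aortas, relative to the mean of the 350 miRNAs and out of 344 others, were miR-21 (Pearson r = 0.969) and miR-10b* (0.950) for miR-125b-5p. They were miR-34b-3p (0.905) and miR-193b (0.904) for miR-125a-5p, and miR-218 (0.951) and miR-193b (0.949) for miR-125a-3p. MiR-125b-3p had miR-532-3p (0.917) and miR-191 (0.916), miR-99b had miR-1930 (0.934) and miR-1198 (0.923), and miR-100 had miR-340-3p (0.953) and miR-345-5p (0.947). Without EC-Dicerflox replicate 3 the r of miR-100 with these was 0.971 and 0.682. These are descriptions over 6 points that share RNA input, and 3 of the 12 names (miR-10b*, miR-1930 and miR-1198) are on the other card. Relative to U6 and snoRNA135, 3 of the 12 names were found again: miR-1198 for miR-99b, miR-218 for miR-125a-3p and miR-21 for miR-125b-5p. Among the members, miR-125a-5p and miR-125a-3p were the most alike (r = 0.961), followed by miR-125b-5p and miR-100 (r = 0.741), whose r was -0.24 without EC-Dicerflox replicate 3.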

How the data were processed

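For the 6 aortas, the authors made cDNA from total RNA, pre-amplified it (Megaplex rodent pools) and loaded it onto TaqMan cards. The authors deposited CT values, not normalized, with 40 for no signal; how thresholds were set is not given in the sources used here. The cards were told apart by the style of the assay numbers (335 and 261 miRNA assays). Per the labels, mice were male; the study's methods say female, and sex was not used.

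Levels are minus delta CT against U6 and snoRNA135 (4 values per aorta). The groups were compared with limma 3.58.1 (R 4.3.3; lmFit, eBayes) over the 461 miRNAs that gave a signal in 1 aorta or more, and single values by exact permutation over samples (Python 3.11.15). P-values were adjusted by Benjamini-Hochberg. Scripts were tested on simulated data. The precision is limited by 3 arrays per group. Members, marker lists, named miRNAs (members, other strands, let-7 neighbours, shared seeds and the 2 most like miRNAs) and settings were chosen with earlier results of these data known. The settings were other treatments of high CT values, other control RNAs, other moderation, the replicate block and leaving out samples.

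Samples of the same number deviated together (r = 0.150, 0.224 and 0.431 over 350 miRNAs), each over 0.1, so numbers were treated as pairs in 1 setting, although samples of different numbers reached 0.285. The 12-week arrays were not analysed here.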

Additional observations from a re-analysis of the deposited data

How the results depend on the processing

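Of the 14 other settings, 7 alter only the variance, the miRNAs tested or CT values above 35. They left the estimates of the detected members as they were, since none of these had a CT above 35. The direction of miR-99b, miR-125a-5p, miR-125a-3p and miR-125b-5p was the same under the other 7, all of them other references, and with each aorta left out, but sizes changed. With 1 aorta left out, miR-99b ran from -0.43 (without EC-DicerWT replicate 3) to -0.095 (without EC-DicerWT replicate 2). MiR-125a-5p and miR-125a-3p ran from 0.20 and 0.071 (both without EC-DicerWT replicate 3) to 0.47 and 0.40 (both without EC-DicerWT replicate 2). With snoRNA202 alone, the 3 were at -0.38, 0.16 and 0.078. That of miR-100 was the same under those 7 but ran from -0.75 (without EC-Dicerflox replicate 3) to 1.46 with 1 aorta left out. MiR-125b-3p turned to -0.013 with snoRNA202 alone and ran from -0.071 (without EC-DicerWT replicate 1) to 0.30 with 1 aorta left out. With the replicate number as a block (paired analysis), miR-125b-5p kept its log2 difference of 0.46 at an unadjusted limma p of 0.154, and the block changed no call of a member. The number of members with an unadjusted p under 0.05 was 1, miR-125b-5p, in place of 0 with an ordinary linear model, where 24 of all 461 passed (5.21%), and with trend and robust moderation, where 16 did (3.47%). The number without overlap fell from 1 to 0 with U6, snoRNA135 or snoRNA202 alone and with 5 control RNAs, where 30 to 45 of the 461 (6.51% to 9.76%) had none, and was 1 to 3 with 1 aorta left out, the highest value without EC-DicerWT replicate 2 and 2 without EC-DicerWT replicate 3. With 1 aorta left out, 17.5% to 23.8% of all miRNAs tested had no overlap. No member had an adjusted p under 0.05 in any of these fits (lowest 0.767). With snoRNA202 alone the median of the 350 miRNAs moved from 0.10 to -0.06, and that of the members was 0.12. CT values above 35 occurred in none of the detected members or let-7 neighbours, so that limit left the distances between assays as they were. For miR-100, the SD within groups and the correlation with miR-125b-5p, were recomputed without EC-Dicerflox replicate 3 after the values had been seen, and were 0.67 and -0.24. The 3 arrays per group limit the precision. The causes of these changes were not tested.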
